A study of Saccharomyces cerevisiae with 2 samples.

Results

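The genes described here encode the yeast cytoplasmic dynein machinery, followed as 10 heterozygous deletion strains within a pooled barcode experiment. Members were taken by function and matched by the gene symbol of the array platform: the dynein chains DYN1, DYN2, DYN3 and PAC11, the dynactin genes JNM1, NIP100 and ARP1, the plus-end targeting genes PAC1 and NDL1, and the cortical anchor gene NUM1. All 10 were measured by both tags on both arrays, among 5219 strains with a value on both arrays.

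Each Saccharomyces cerevisiae strain was a diploid lacking 1 copy of a single gene and convertible to haploid form. A pool of 5896 such strains received either a tub1D::URA3 cassette, which deletes 1 copy of TUB1, or, as the control, a ura3D::URA3 cassette. Both pools grew for 2 days at 30 °C on SC-Ura medium. Every cell compared thus carried its own heterozygous deletion and the selected URA3 marker. Cells of the tub1D pool also lacked 1 copy of TUB1. Tags from the control pool (Cy5) and the tub1D pool (Cy3) were amplified from genomic DNA and hybridised together on each of 2 arrays, experiments 1 and 2. All strains grew mixed in 1 pool, and the labels do not say whether the experiments were separate transformations. The SDs between arrays and the main p-values therefore cover array-to-array spread only, which may be purely technical. Where a fit kept both tags of a strain, its p-values also draw on the spread between tags of the same DNA.

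Dynein is a minus-end directed microtubule motor. In budding yeast it pulls on astral microtubules from the bud cortex and draws the mitotic spindle and nucleus into the bud neck, a task it shares with a parallel pathway that depends on Kar9. The motor is first carried to microtubule plus ends with the help of Pac1 and Ndl1, needs dynactin for its activity, and is off-loaded at the cortex to Num1. Tub1 is the major alpha-tubulin of the microtubules on which it walks.

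Values are log2 ratios per tag with the deposited sign, centred so that 0 is the median tag of its set on that array. Each strain has a first and a second tag, and its value on an array is the mean of both. From the dyes and the usual red over green ratio of the scanner program, a strain with a positive ratio was probably rarer in the tub1D pool, but no source used here states the direction. The TUB1 strain, which could have settled it, held 0 values in 4 measurements. As a reference for scale, TUB3, the minor alpha-tubulin gene, had the highest mean of all strains at 4.22 ± 0.32 (SD, n = 2 arrays). Each tag had 6 spots in 8 of the members and 1 spot in DYN3 and NDL1. Spot brightness was not used here, and no filter on weak spots was possible.

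Among the members NUM1 alone stood well above 0 by every tag. Strains of all 4 dynein chain genes had negative means, as did 3001 of all 5219 strains. For DYN1, DYN2 and PAC11 this came mainly from 1 tag, and DYN3 was at -0.23 by its first and -0.81 by its second tag. The 3 dynactin strains and NDL1 lay close to 0, and PAC1 had opposite signs on the arrays. None of the 10 passed limma's test over all strains, with adjusted p-values (Benjamini-Hochberg) from 0.229 for NUM1 to 0.877 for ARP1. This has to be read against a background in which 0% of the 5219 strains passed with a positive ratio and 0% with a negative one. The adjusted p of 0.229 was the smallest of all strains, but it was a shared value and does not rank NUM1. TUB3 had the same adjusted p, although its unadjusted limma p was 0.000477, beside 0.00893 for NUM1. Before adjustment, 1 positive member, NUM1, and 1 negative member, DYN3, had a limma p under 0.05, where 9.12% of all strains did so with a positive and 11.7% with a negative ratio.

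**Figure D1:**
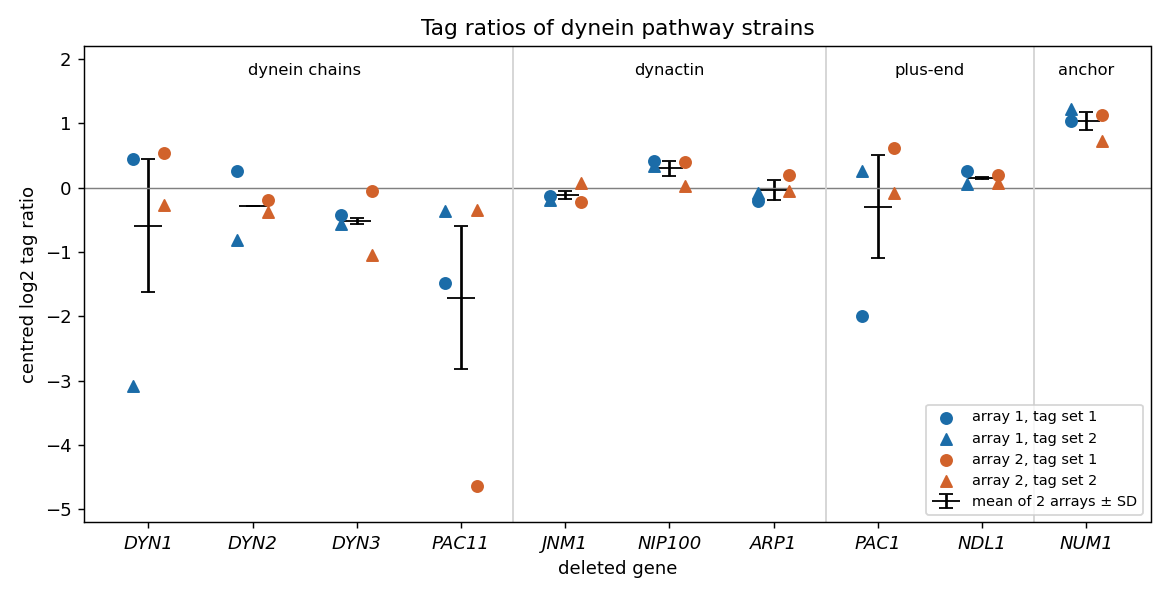
Centred log2 tag ratios (vertical axis) of the 10 deletion strains (horizontal axis), grouped by role. Blue is array 1 and orange array 2, circles are the first and triangles the second tag set, and black bars give the mean of 2 arrays ± SD. The 4 NUM1 tags lie between 0.73 and 1.22, above every other member's tags. DYN1 and PAC1 on array 1 and PAC11 on array 2 each have a tag far below the other. For PAC1 the lower tag of array 1 is the higher one on array 2.

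NUM1 encodes a large cortical protein that binds dynein at the plasma membrane and also tethers mitochondria there. Its first tag had a ratio of 1.03 on array 1 and 1.13 on array 2. Its second tag had 1.22 and 0.73. Both arrays and both tags were therefore positive, with the second tag on array 2 the lowest of the 4. The mean was 1.03 ± 0.14 (SD, n = 2 arrays; 1.12 on array 1 and 0.93 on array 2), or 2.04-fold. All 24 spots of the strain were positive, and 16 of them were at least 2-fold. The strain ranked 56 of 5219 on array 1, 111 on array 2 and 52 by the mean. Only 1.18% of 5191 strains measured by both tags had all 4 tag values at least as high as the lowest of NUM1.

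NUM1 also stood above the other members on each array. Its ratio exceeded the median of the other 9 by 1.41 on array 1 and by 0.86 on array 2, a mean difference of 1.14 ± 0.39 (SD, n = 2). The exact two-sided sign-flip permutation test over the arrays gave p = 0.5, the smallest value that 2 arrays allow. The next highest member was at 0.38 on array 1 and at 0.27 on array 2, so NUM1 overlapped with none of them.

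The adjusted p of NUM1 depended on how the tags entered the test. It was 0.229 with the tags averaged and 0.0264 by limma when both tags were kept and the array was a random block. The latter fit counts both tags of a strain as measurements, so its p-value also draws on the spread between tags. That fit estimated a correlation of -0.289 between tags on the same array, and it called 6.94% of all strains positive and 3.27% negative. With the tag set as the block, where the estimated correlation was 0.18, the adjusted p of NUM1 was 0.0963 by limma, and 0.0193% of strains were called positive and 0.0385% negative. Among the 553 strains with 6 spots per tag and a spot SD at or under 0.3 in every measurement, it was 0.0457 by limma, with 8.86% of these strains called positive and 2.53% negative. The last pair of settings was chosen after seeing the data. NUM1 was thus called with the array as the block and in the subset with low spot SDs, but not with the tag set as the block. No other member was called in these 3 fits. Of the members, however, that subset held only DYN2, JNM1, NIP100, ARP1 and NUM1.

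The dynein chain genes encode the heavy chain with the motor domain (DYN1), the light chain (DYN2), the light intermediate chain (DYN3) and the intermediate chain (PAC11). The median of the 4 strains was -0.71 on array 1 and -0.42 on array 2, beside -0.09 and -0.03 for all strains. Of the 4, 3 were negative on both arrays (41.7% of all strains were) and DYN1 changed sign. With the first tag set alone the median over both arrays was -0.10 in place of -0.56, and with the second alone it was -0.53. No test of this subgroup was made, because strains are not replicates.

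PAC11 had the lowest mean of the members, -1.71 ± 1.11, and ranked 5075 of 5219. Its first tag had -1.49 on array 1 and -4.64 on array 2. Its second tag had -0.36 and -0.35. All 4 values were negative and the second tag hardly moved between arrays, so both the mean and its SD rest on the first tag. All 12 spots of that first tag were negative, ranging from -1.82 to -1.24 on array 1 and from -5.01 to -3.60 on array 2. The deposited ratios have 2 decimals, so values this low fall on coarse steps. The gap of 4.29 between the tags on array 2 was larger than that of 99.2% of strains. The adjusted p was 0.241 by limma.

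DYN1 showed the same kind of split with the tags exchanged. Its first tag had 0.44 on array 1 and 0.54 on array 2. Its second tag had -3.08 and -0.27. The first tag was positive in all 12 spots, whereas the second was negative in 6 of 6 spots on array 1 and in 4 of 6 on array 2. On array 1 the spots of the second tag ran from -6.52 to -1.88, an SD of 1.74 that exceeded the spot SD of 99.7% of tags, and 1 spot lay at the smallest ratio of the data. The mean of -0.59 ± 1.03 (-1.32 on array 1, 0.14 on array 2) changed to 0.49 with the first tag alone and to -1.68 with the second. The strain thus had no direction shared by its tags.

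DYN2 and DYN3 differed little between arrays. DYN2 was at -0.29 on array 1 and at -0.29 on array 2, but its first tag had 0.25 and -0.20 while its second had -0.82 and -0.38. The second tag was negative in every spot on both arrays, and with the first tag alone the strain stood at 0.03. DYN3 was at -0.49 and -0.55, a mean of -0.52 ± 0.04. All 4 of its tag values were negative, at -0.42 and -0.57 on array 1 and at -0.05 and -1.05 on array 2. Each of these is a single spot, and the small SD between arrays does not show how far the tags lay apart on array 2. The adjusted p was 0.236 for DYN3 and 0.314 for DYN2 by limma.

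**Figure D2:**
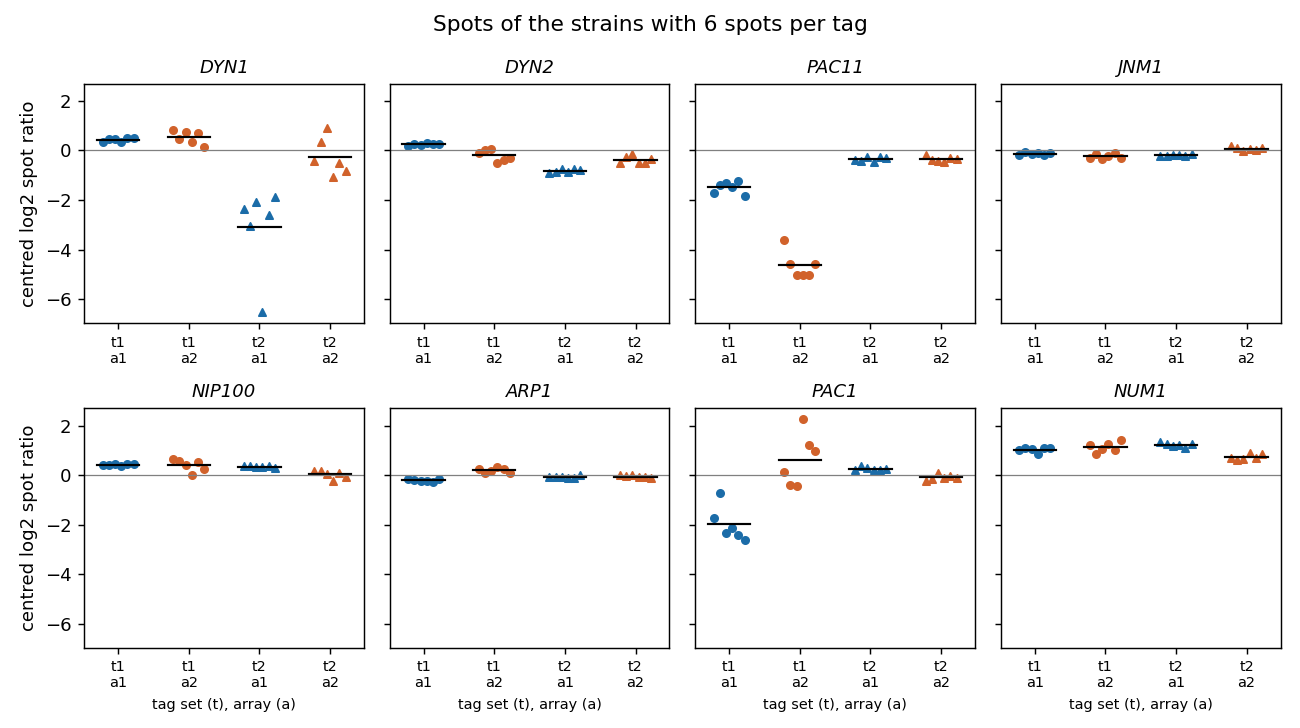
Centred log2 ratio of each spot (vertical axis) for the 8 strains with 6 spots per tag, by tag set (t1 circles, t2 triangles) and array (a1 blue, a2 orange), with black bars at the mean. NUM1 spots are all above 0 with SDs from 0.08 to 0.20, while the second tag of DYN1 and the first tags of PAC11 and PAC1 scatter widely.

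Dynactin strains lay near 0, with means from -0.12 to 0.30. ARP1 encodes the actin-related protein that forms the dynactin filament, JNM1 the p50 (dynamitin) subunit, and NIP100 the p150 (Glued) subunit that binds dynein and microtubules. Their median was -0.14 on array 1 and 0.07 on array 2. NIP100 was positive by both tags on both arrays, at 0.42 and 0.34 on array 1 and at 0.40 and 0.03 on array 2, a mean of 0.30 ± 0.12. JNM1 had -0.13 and -0.20 on array 1 and -0.23 and 0.07 on array 2, a mean of -0.12 ± 0.06. ARP1 had -0.21 and -0.08 on array 1 and 0.19 and -0.06 on array 2, a mean of -0.04 ± 0.15. The 3 strains were thus 1 positive on both arrays, 1 negative on both and 1 of opposite signs. The spots of ARP1 and JNM1 on array 2 were among the quietest, with SDs from 0.05 to 0.11 that undercut over 95% of tags with 6 spots. By limma the adjusted p was 0.321 for NIP100, 0.584 for JNM1 and 0.877 for ARP1.

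The plus-end targeting genes gave 1 quiet and 1 divided strain. NDL1, the yeast NudEL homolog that helps Pac1 bring dynein to plus ends, had tag values of 0.26 and 0.06 on array 1 and of 0.19 and 0.07 on array 2. All were positive and small, with a mean of 0.15 ± 0.02 and an adjusted p of 0.513 by limma. PAC1, the homolog of human LIS1, had 0.25 and -0.09 by its second tag and -2.00 and 0.62 by its first. The 6 spots of the first tag ran from -2.62 to -0.72 on array 1 and from -0.43 to 2.26 on array 2, and the spot SD of 1.05 on array 2 exceeded that of 98.7% of tags. The strain mean was -0.30 ± 0.80 (-0.87 on array 1, 0.27 on array 2), with an adjusted p of 0.625 by limma. Its sign therefore differed between arrays and, on each array, between tags.

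**Figure D3:**
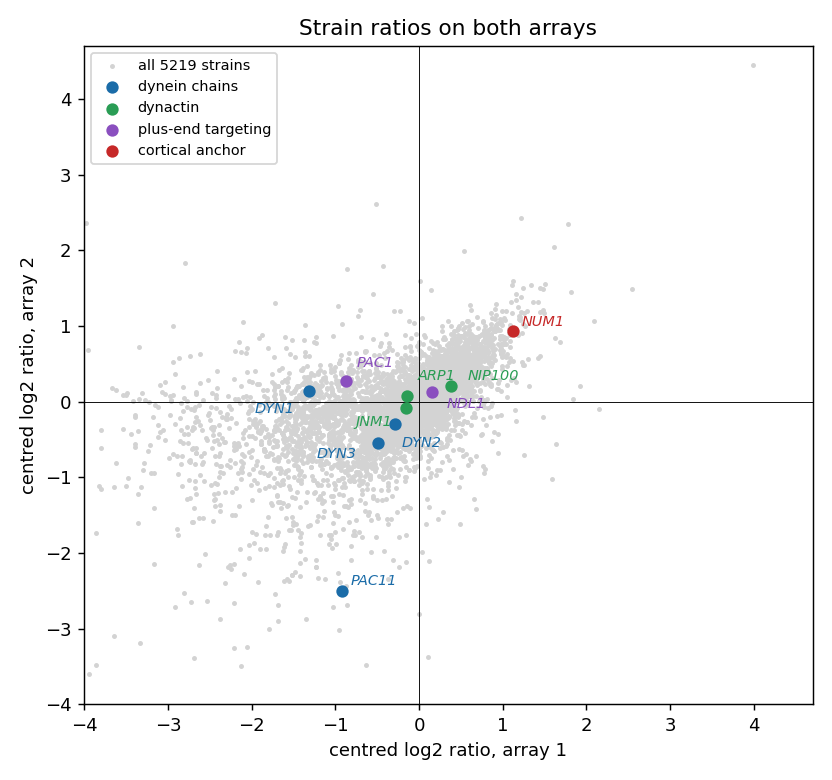
Centred log2 ratio of each strain on array 1 (horizontal axis) and array 2 (vertical axis), with all 5219 strains in grey and the 10 members coloured by role. NUM1 lies at 1.12 and 0.93 in the upper right, PAC11 at -0.92 and -2.50 in the lower left, and 10 strains fall outside the axes, which run from -4 to 4.7.

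Over the 10 members, 3 were positive on both arrays (NUM1, NIP100 and NDL1), where 32.7% of all strains were. On both arrays 4 were negative (PAC11, DYN2, DYN3 and JNM1), where 41.7% of all strains were, and 3 had opposite signs (25.6% of all strains). The shares were thus near those of the whole pool. The median of the member means was -0.21, beside -0.09 for all strains. No member was at least 2-fold from 0 on both arrays, whereas 0.728% of strains were so positive and 3.74% so negative. NUM1 missed that mark on array 2. Means within 0.5 of 0 were found for 6 of the 10 and for 63.0% of all strains.

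Ordered by mean, the members ran NUM1, NIP100, NDL1, ARP1, JNM1, DYN2, PAC1, DYN3, DYN1 and PAC11. The step from NUM1 to NIP100 was 0.74 on array 1 and 0.71 on array 2, larger than the SD of either strain. From NIP100 to NDL1 and from NDL1 to ARP1 the order held on each array, with steps of 0.07 to 0.30, and from JNM1 to DYN2 with steps of 0.12 and 0.21. The ranges of ARP1 and JNM1 overlapped, although ARP1 was the higher by 0.02 on array 1 and by 0.15 on array 2. Each neighbouring pair from DYN2 down to PAC11 overlapped and changed order between arrays. The step of 1.12 from DYN1 to PAC11 was the widest by the mean, but it was -0.40 on array 1 and 2.64 on array 2. DYN2, DYN3 and PAC11 kept their order on both arrays, and it was DYN1 and PAC1, with SDs of 1.03 and 0.80, whose places among them differed between arrays.

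How far a member could be read depended on its tags. In 5 strains (NUM1, NIP100, NDL1, DYN3 and PAC11) the 4 tag values had 1 sign, where 20.4% of all strains had 4 positive and 20.1% had 4 negative values. In 3 strains (DYN1, PAC11 and PAC1) the tag values spanned more than 2 on the log2 scale. These same 3 held all 5 member measurements, of 32 with 6 spots, whose spot SD exceeded that of 95% of tags. They were the second tag of DYN1 on both arrays (-3.08 and -0.27), the first tag of PAC1 on both arrays (-2.00 and 0.62) and the first tag of PAC11 on array 2 (-4.64). The 3 lowest tag values of the members were thus among them, beside a value near 0 and a positive one, and the part of spot scatter in these values was not tested. The median spot SD of all tags with 6 spots was 0.06 for either set on array 1, and 0.21 and 0.14 for the first and second set on array 2.

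The strains of adjacent genes lack a copy of another gene at the same locus. Whether such a deletion affects the member beside it was not tested. The nearest gene on either side of each member was taken from NCBI's table of yeast genes (R64), which served for names and order only. No gene in that table overlapped a member, and 17 of 20 adjacent genes were measured. Their means ran from -0.72 to 0.86, with 13 positive, 4 negative and a median of 0.19. NUM1 was above both of its neighbours on both arrays. They were KGD2, a subunit of alpha-ketoglutarate dehydrogenase, at 0.12 ± 0.05 and CTH1, an mRNA-binding protein gene, at 0.45 ± 0.18. The tags of KGD2 had opposite signs, at 0.87 and -0.57 on array 1 and at 0.50 and -0.33 on array 2. Of 8 members with both neighbours measured, 4 lay below both on both arrays: PAC11, DYN1, DYN3 and JNM1, the last by less than the rounding on array 2. The same share was not computed over all strains, so this count has no background. The neighbours' median of 0.19 also lay above the -0.09 of all strains. Beside DYN3, ADE4, which acts in purine synthesis, stood at 0.86 ± 0.54 and LIP1, a ceramide synthase subunit gene, at 0.19 ± 0.34. Each tag of DYN3 and of both these neighbours was a single spot. The neighbours of DYN1 were YSR3 at 0.42 ± 0.12 and RHO4 at 0.36 ± 0.10, close to the first tag of DYN1 and not to its second.

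**Figure D4:**
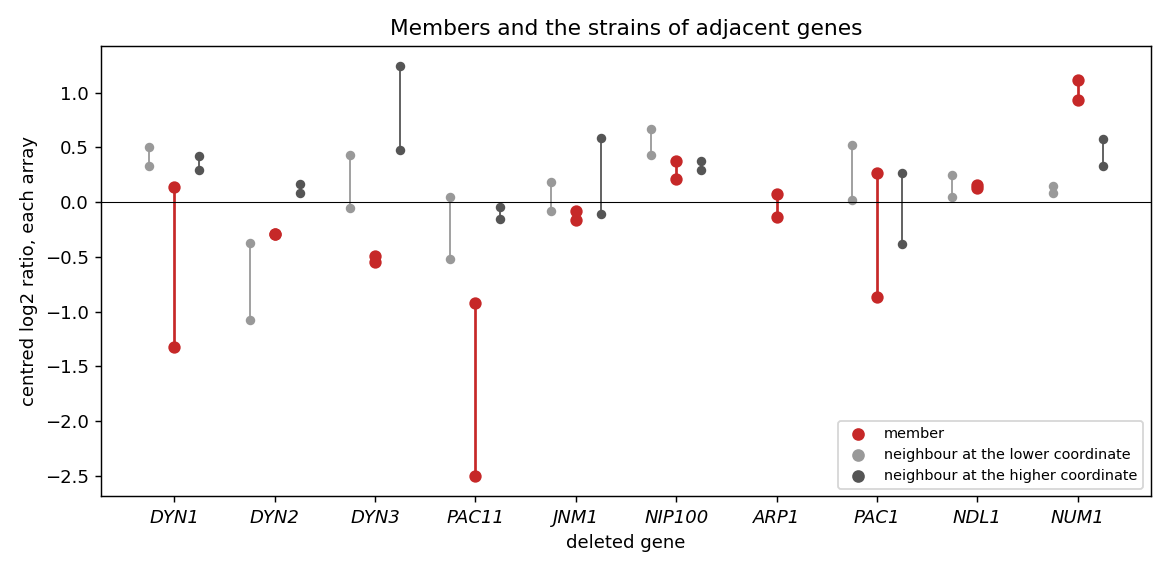
Centred log2 ratio on each array (vertical axis) of the 10 members (red) and of the strains deleted for the adjacent gene at the lower (light grey) and higher coordinate (dark grey); lines join arrays 1 and 2. NUM1 lies above both neighbours on both arrays, and no neighbour of ARP1 is shown.

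The members were spread over 7 chromosomes, with NUM1, DYN2 and PAC11 on chromosome IV and JNM1 and DYN3 on chromosome XIII. The 3 on chromosome IV included the highest and the lowest member. The median of the 691 strains of that chromosome was -0.05 on array 1 and 0.04 on array 2. JNM1 and DYN3 are separated by 4 genes, and 425 genes lie between JNM1 and TUB1 on the same chromosome. The 410 strains of chromosome XIII had medians of -0.17 and -0.08.

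Other genes of dynein function were taken as a list: LDB18 and ARP10, components of dynactin, BIK1 and KIP2, a CLIP-170 homolog and a kinesin that carry dynein toward plus ends, SHE1, an inhibitor of dynein motility, and MDM36 and SCS2, which help to place Num1 at the cortex. ARP10 was not analysed here. Array 1 gave the 6 measured strains a median of 0.08 and array 2 one of 0.23, and the median of their means was 0.18. On both arrays 4 were positive and 2 negative, where 32.7% and 41.7% of all strains were. As in all strains, 0 passed limma. BIK1 was highest, at 0.66 ± 0.27, its tags reading 1.02 and 0.69 on array 1 and 0.45 and 0.50 on array 2. Its adjusted p was 0.238 by limma, and 0.0475 by limma with both tags kept and the array as a random block. That block fit called 6.94% of all strains positive. In the subset with low spot SDs described for NUM1, the adjusted p of BIK1 was 0.0669 by limma. Its value with the tag set as the block, where 0.0193% of strains were called positive, is not given here. KIP2 was at 0.27 ± 0.01, MDM36 at 0.25 ± 0.18, LDB18 at 0.12 ± 0.13 and SCS2 at -0.16 ± 0.03. SHE1 was lowest at -1.46 ± 1.34, with -0.29 and -0.09 by its first tag and -4.52 and -0.93 by its second.

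Strains of the parallel Kar9 pathway, in which Kar9 and Bim1 link microtubule ends to the myosin Myo2 on actin cables, had no shared sign. Array 1 gave the 7 strains a median of -0.11 and array 2 one of -0.06, while the median of their means was 0.11. Both arrays were positive for 2 and negative for 3 of them, where 32.7% and 41.7% of all strains were. Here too 0 passed limma, as in all strains. KAR9 itself was at 0.17 ± 0.02, and MYO2 was highest at 0.18 ± 0.08. BNI1, BUD6 and TPM2, which act in actin cable assembly, lay from -0.23 to 0.15. BIM1, the yeast EB1 homolog, was at -1.04 ± 0.75, with -0.80 and -1.29 by its first tag and -2.35 and 0.28 by its second. KIP3, a kinesin-8 that shortens microtubules, was lowest at -1.13 ± 1.07, with its second tag at -3.62 and -0.68 and its first at -0.16 and -0.08.

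The strains most like NUM1 were found by Euclidean distance over the 4 tag values among 5190 other strains. They were CSS3 at a distance of 0.18, PFA3, a palmitoyltransferase gene, at 0.21, and YHL042W at 0.26. Their means were 1.02 ± 0.08, 0.99 ± 0.12 and 0.94 ± 0.14, each tag being a single spot. The likeness is over 2 tags on 2 arrays, and no test was made.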

How the data were processed

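The authors deposited log2 ratios per spot from 2-colour tag arrays. Images came from a GenePix 4000B scanner and were analysed with GenePix 5.1, per the labels' descriptions. For the background correction, the normalization and the numerator of the ratio, the method was not given in the sources used here. That the values are log2 follows from the deposited numbers: back on the linear scale, 100.0% of 40008 values lay within 0.001 of a hundredth, the smallest being 0.01. Ratios of 1e+06 (2 values) were treated as missing. The deposited medians were -0.12 and -0.04 on arrays 1 and 2, and centring moved the arrays up by these amounts. Symbols with an unclear number of probes per tag set (105) were left out.

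Spots were averaged per tag. The median of every tag set on an array was subtracted before the tags of a strain were averaged. The 5219 strains were tested against 0 with limma 3.58.1 in R 4.3.3 (lmFit, eBayes, two-sided, Benjamini-Hochberg, threshold 0.05). The limma step was tested on simulated data. Python 3.11.15, pandas 2.3.3 and matplotlib 3.10.9 were used. The number of arrays (2) limits the precision.

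The members and lists were chosen with earlier results of these data known. All members are named. Further names are the highest and lowest of each list, adjacent genes, the 3 strains nearest to NUM1, and TUB3; other names were chosen after seeing values.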

Additional observations from a re-analysis of the deposited data

How the results depend on the processing

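No paired analysis was possible because both arrays form 1 group. NUM1, NIP100 and NDL1 stayed positive and PAC11, DYN3 and JNM1 negative in every alternative run for them, NUM1 from 0.93 to 1.12. With the first tag set only, DYN1 reversed to 0.49, DYN2 to 0.03, and the dynein chain median moved to -0.10; with the second only, PAC1 reversed to 0.08. Leaving out 1 array gave DYN1 from -1.32 to 0.14, ARP1 from -0.14 to 0.07 and PAC1 from -0.87 to 0.27. Keeping both tags with the array as a random block raised limma's calls from 0 and 0 to 360 positive and 170 negative strains; the tag set as the block gave 1 and 2, and strains with 6 quiet spots gave 49 and 14. At an unadjusted p under 0.05 limma had 476 positive and 612 negative strains. Why these counts differ was not tested. Quantile normalization, no centring, the median of spots, robust eBayes, leaving out spots at the smallest ratio and requiring both tags changed no call of a member. The members positive (3) and negative (4) on both arrays became 4 and 3 with the first tag set and 3 and 5 with the second. Signal over background is not given, so which low ratios are weak spots is not known.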
